A study of Mus musculus with 35 samples.

Results

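Folliculin is encoded by Flcn on mouse chromosome 11, and a kidney that loses it is compared here with its controls in 3 crosses. The genes described are 47 protein-coding neighbours of Flcn, listed by symbol and found by that symbol in the deposited count tables, out of 31053 genes counted in every table. They lie between positions 59661305 and 62600515 of chromosome 11 (mm10), a stretch of 2.94 Mb that also holds Flcn itself (59791408 to 59810016). Mprip and Pld6 lie on one side of Flcn and the other 45 on the other side. Flcn and the polyubiquitin gene Ubb are not among the 47. The question was whether genes beside the targeted allele moved with the deletion.

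The libraries were QuantSeq 3′ mRNA libraries from kidneys of C57BL/6 mice of both sexes at postnatal day 2, 35 in all. In the Flcn cross, 5 Flcn KO kidneys (Flcn flox/flox with Ksp-cre, which is driven by the Cdh16 promoter in collecting duct, distal tubule and thick ascending limb) were compared with 5 controls. The Flcn/Tfeb cross had 4 double knockout (DKO) kidneys, in which Ksp-cre acts on floxed Flcn and floxed Tfeb, and 3 controls. The Flcn/Tfe3 cross had 10 DKO kidneys, which join the Ksp-cre deletion of Flcn with a Tfe3 null allele in every cell, and 8 controls. The counts of this last cross were deposited as 2 tables. One holds 3 controls and 6 DKO libraries (in vivo table), the other 5 controls and 4 DKO libraries (CDM table). The study describes its controls as Flcn flox/flox. Both groups of a cross would then carry the same floxed allele and the DNA around it, so that a comparison within a cross cannot show an effect that this DNA has in both. Whether the Flcn/Tfe3 controls carry Tfe3 is not given in the sources used here. Ksp-cre acts in some tubule segments only and RNA of the kidney was read as bulk, so that fewer cells of a type and less RNA per cell cannot be told apart.

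The stretch is gene-dense and is conserved as a block in the human genome, where its loss causes Smith-Magenis syndrome through Rai1. Several of its genes touch the pathway of folliculin itself. Smcr8 is a DENN-domain partner of C9orf72 with a fold related to that of folliculin, Ulk2 is an autophagy kinase, and Srebf1 encodes the lipogenic factor SREBP-1. When folliculin is lost, the transcription factors Tfeb and Tfe3 enter the nucleus and bind the E-box CACGTG in promoters of lysosomal genes.

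Library depth ran from 1652649 to 4239356 counts (median 2992169), so that 3 counts correspond to between 0.708 and 1.82 CPM (counts scaled to the library size). The kidney label was checked on the proximal tubule genes Slc34a1 and Lrp2, which were at no less than 473 and 358 CPM in any library. Adrenal transcripts (Cyp11a1, Star, Cyp11b1 and Hsd3b1) summed to more than 50 CPM in 7 libraries of the Flcn/Tfeb and Flcn/Tfe3 crosses, and liver transcripts (Alb, Apoa1, Apoa2 and Serpina1a) to more than 1000 CPM in 6. Flcn itself was counted at 11.9 to 16.4 CPM in its 5 controls and at 10.3 to 18.8 CPM in the 5 Flcn KO kidneys. Its level overlapped between control and knockout in the other crosses too (10.5 to 16.1 against 11 to 16.8 CPM, and 8 to 14.8 against 6.34 to 16.2 CPM). Which part of Flcn is deleted, and whether the 3′ reads lie inside it, is not given in the sources used here, so this level does not check the labels.

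None of the members was called in any of the 3 crosses. A gene was called when its adjusted p was under 0.05 (edgeR quasi-likelihood test, Benjamini-Hochberg adjustment over all genes tested). In Flcn KO against control, 0 of the 39 members that passed the filter on low counts were called, beside 0.520% of the 11932 genes tested (62 genes). In Flcn/Tfeb DKO against control, 0 of 38 members were called, beside 0 of 12469 genes (0%). In Flcn/Tfe3 DKO against control, 0 of 40 were called, beside 0.385% of 12456 genes (48 genes). With shares of called genes this low, a count of 0 members is close to what the genome as a whole gives. At an unadjusted p under 0.05 the counts were 4 of 39, 1 of 38 and 1 of 40 members, or 10.26%, 2.632% and 2.5%, beside 9.068%, 5.069% and 7.153% of all genes tested. The 2 tables of the Flcn/Tfe3 cross differed when fitted alone. The in vivo table had 4 of 41 members under that p (9.756%, beside 6.558% of all genes) and called 8 genes, and the CDM table had 9 of 40 (22.5%, beside 21.3%) and called 569, with 0 members called in either. DESeq2 called 0 members in each cross, beside 113, 0 and 96 genes.

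The size of a change that these libraries could still hide differed between crosses. The 95% interval of the fold change lay within a 2-fold change either way for 35 of 39 members in the Flcn cross, for 25 of 38 with Tfeb also deleted and for 38 of 40 in the Flcn/Tfe3 cross. Within 1.5-fold the counts were 19, 7 and 31. The median half-width of the interval was 0.41, 0.58 and 0.35 on the log2 scale. The median log2 fold change over the members was 0.0015, -0.046 and 0.044, against -0.0074, -0.017 and 0.0090 over all genes tested. In the Flcn cross 20 members were higher and 19 lower, in the Flcn/Tfeb cross 17 and 21, and in the Flcn/Tfe3 cross 23 and 17.

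**Figure D1:**
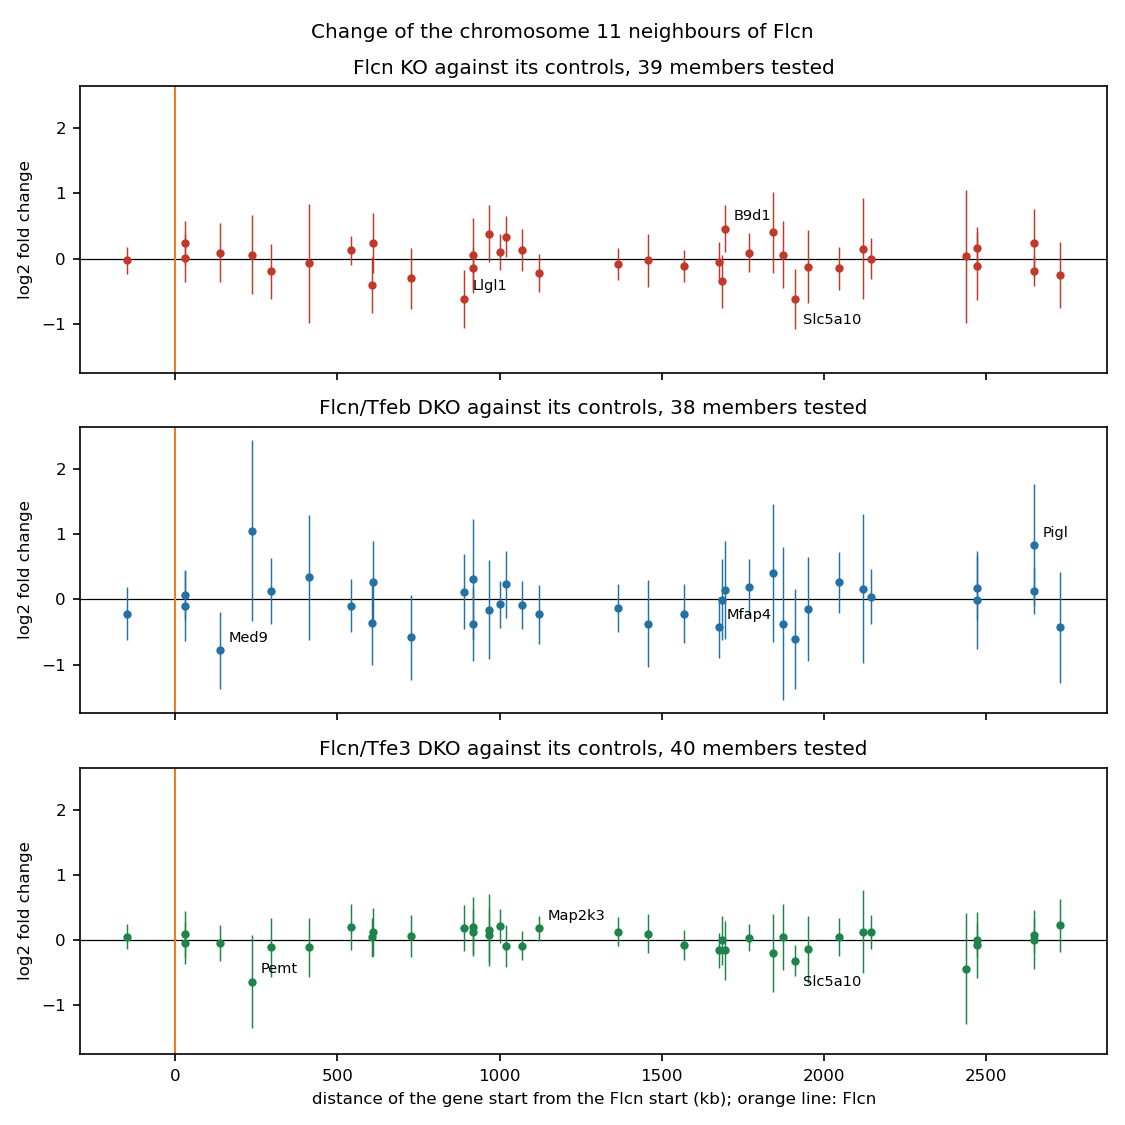
Log2 fold change (vertical axis) of each member tested, with its 95% interval, against the distance of its start from the start of Flcn in kb (horizontal axis), in 3 panels, 1 per cross; the 3 members with the smallest p-values are named. The values scatter about 0 at every distance, and the intervals are widest in the Flcn/Tfeb cross.

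Distance from Flcn showed little relation to the values of the members. Across members, the Pearson coefficient of the log2 fold change with distance was -0.03 in the Flcn cross (39 members), 0.08 with Tfeb also deleted (38 members) and -0.03 in the Flcn/Tfe3 cross (40 members). For the size of the change without its sign it was 0.05, -0.08 and -0.05. Members share libraries and are not independent, so these coefficients are descriptions. The 7 tested members within 500 kb of Flcn had a median size of change of 0.0735, 0.219 and 0.093, beside 0.151, 0.221 and 0.129 for the members beyond it.

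The 4 genes that flank Flcn span a wide range of levels. Mprip, a myosin phosphatase interacting protein that starts at -148.7 kb from the start of Flcn, was read at 185, 204, 185, 200 and 200 CPM in the 5 controls of the Flcn cross and at 180, 185, 204, 205 and 184 CPM in the Flcn KO kidneys. Both groups cover the same values, and the log2 fold change was -0.03 (95% interval -0.24 to 0.18). In the other crosses it was -0.22 (-0.62 to 0.18) and 0.05 (-0.14 to 0.24).

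Cops3, a subunit of the COP9 signalosome, and Nt5m, a mitochondrial nucleotidase, start 29.8 and 29.4 kb from the start of Flcn on opposite strands and overlap at their starts. Cops3 was read at 38.1, 50.9, 50.4, 33.7 and 35.2 CPM in control and at 63.6, 41.3, 50.4, 47 and 41.4 CPM in Flcn KO kidneys, with one KO library above every control and the others among them. Its log2 fold change was 0.23 (-0.10 to 0.57) in the Flcn cross, 0.07 (-0.32 to 0.46) with Tfeb also deleted and 0.09 (-0.26 to 0.45) in the Flcn/Tfe3 cross. The last value joins 2 tables that differed in sign, 0.55 in the in vivo table and -0.36 in the CDM table, neither of them called. Nt5m was nearly level, at 15.9 ± 1.25 CPM (SD, n = 5) in control and 16.2 ± 2.43 CPM (SD, n = 5) in Flcn KO kidneys, and its log2 fold change was 0.01, -0.10 and -0.04 in the 3 crosses.

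Pld6, a mitochondrial phospholipase and the nearest gene to Flcn, was too low for the filter in every cross. It had at most 13 counts in a library and none in 3 libraries. Its level was 0.531 to 1.82 CPM in control and 1.43 to 2.41 CPM in Flcn KO kidneys, around the value of 3 counts. All 5 KO libraries were above the control median, the groups overlapped, and the exact permutation test gave p = 0.0952.

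**Figure D2:**
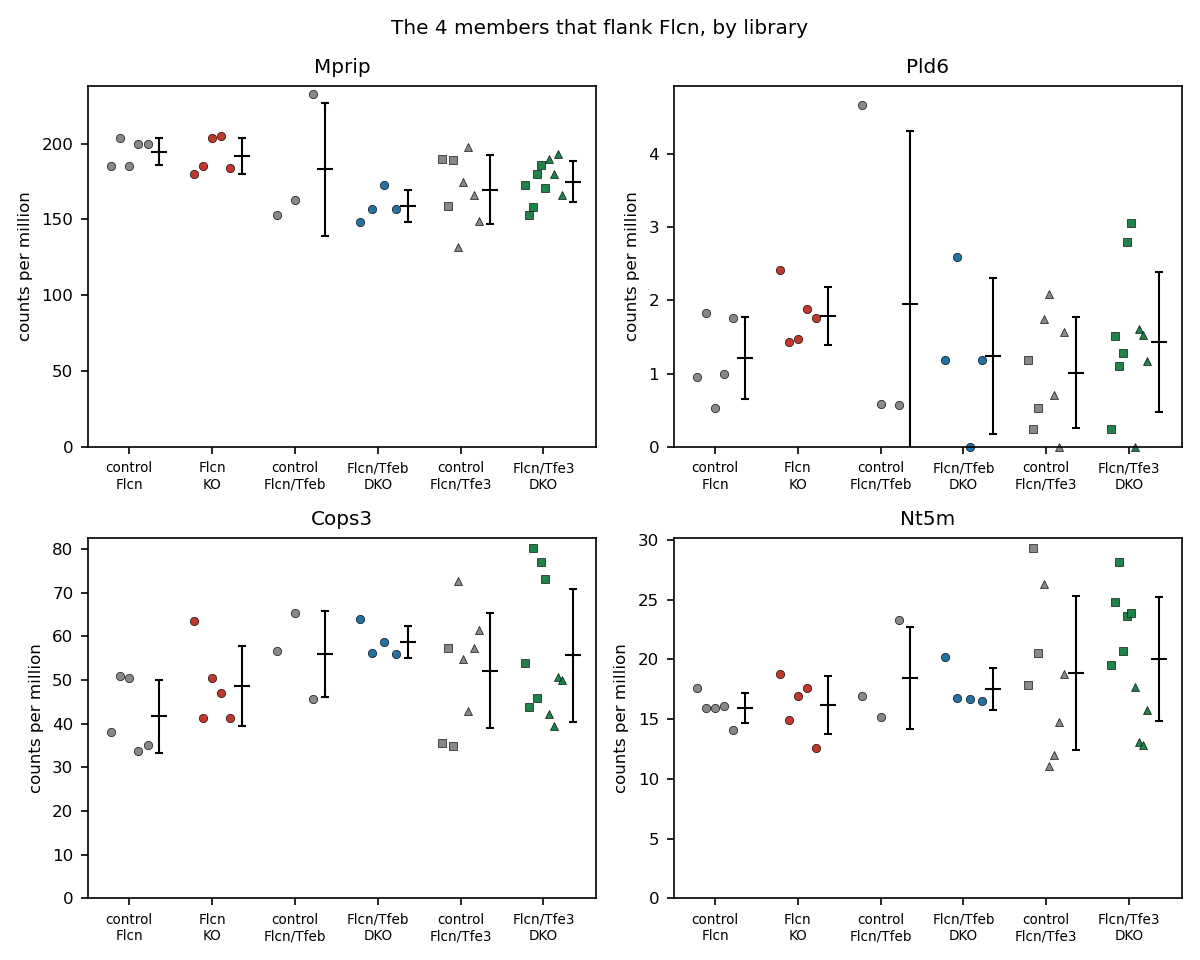
CPM (vertical axis, from 0) of Mprip, Pld6, Cops3 and Nt5m in each of the 35 libraries by group, with the group mean and SD as bars; circles are the Flcn and Flcn/Tfeb crosses, squares the in vivo table and triangles the CDM table of the Flcn/Tfe3 cross. Control and knockout libraries overlap for each gene, and Pld6 stays below 5 CPM throughout; a lower SD that falls under 0 is cut at the axis.

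Both kidney transporters among the members, Slc5a10 and Slc47a1, had log2 fold changes below 0 in each cross, and neither was called. Slc5a10 encodes SGLT5, a mannose and fructose transporter of the proximal tubule, and starts 1910.8 kb from the start of Flcn. It was read at 56.2, 74.1, 101, 69 and 44.6 CPM in control and at 72.3, 38.2, 36.8, 44.5 and 33.7 CPM in Flcn KO kidneys. Of the 5 KO libraries, 4 lay below every control and the remaining one within the control range. The log2 fold change was -0.62 (95% interval -1.08 to -0.16) with an adjusted p of 0.359 (edgeR), and the exact permutation test gave p = 0.0635.

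With Tfeb also deleted, Slc5a10 was at 67.7, 25.7 and 70.1 CPM in control and at 41.7, 35, 21.7 and 47.6 CPM in DKO kidneys. The control at 25.7 CPM fell among the DKO libraries, so the groups overlapped, and the log2 fold change was -0.60 (-1.37 to 0.16, adjusted p = 0.798, edgeR). In the Flcn/Tfe3 cross the 8 controls ran from 53.6 to 84.3 CPM (median 73.9) and the 10 DKO libraries from 47.4 to 70.5 CPM (median 56.3).

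All 10 of these DKO libraries were below the control median, with a log2 fold change of -0.32 (-0.55 to -0.08, adjusted p = 0.433, edgeR) and an exact permutation p of 0.0146 within tables. The difference was -0.27 in the in vivo table alone and -0.39 in the CDM table alone. Slc5a10 thus had the lowest or the second lowest unadjusted p among the members in 2 of the 3 crosses and was called in neither.

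Proximal tubule genes that lie elsewhere also had lower means in the knockouts. Slc34a1, the phosphate transporter of that segment, averaged 913 ± 149 CPM (SD, n = 5) in control and 770 ± 106 CPM (SD, n = 5) in Flcn KO kidneys. With Tfeb also deleted the control and DKO means were 782 and 706 CPM, and the Flcn/Tfe3 cross gave 602 and 546 CPM. Lrp2, the endocytic receptor megalin, averaged 648 and 565, 505 and 430, and 504 and 477 CPM in the same order. The part of these levels in the value of Slc5a10 was not tested. Ksp-cre is not described as active in the proximal tubule.

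Of the 47 members, 24 overlap another annotated gene, Slc5a10 among them, and reads from either strand cannot be told apart if strand was not used. Fam83g lies inside it on the opposite strand and Grap overlaps its end, and whether reads were counted by strand is not given in the sources used here. Fam83g, a scaffold of casein kinase signalling, was read at 9.06 CPM in control and 9.48 CPM in Flcn KO kidneys. With Tfeb also deleted its control and DKO means were 7.67 and 5.58 CPM, and in the Flcn/Tfe3 cross 4.66 and 5.06 CPM. The other transporter, Slc47a1 (MATE1, which exports organic cations), had log2 fold changes of -0.12, -0.22 and -0.07, all with intervals that include 0, and 0.05 in the in vivo table alone.

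**Figure D3:**
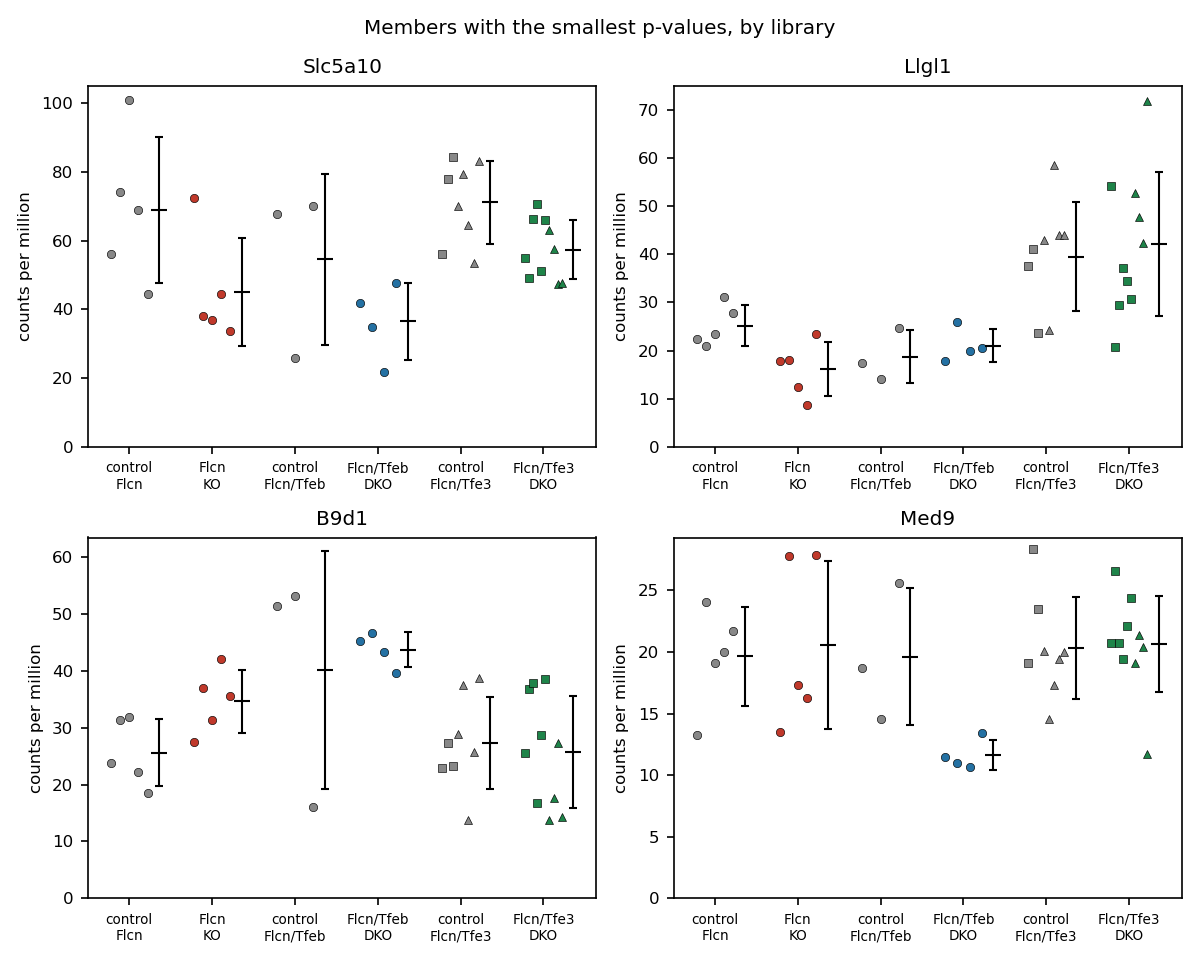
CPM (vertical axis, from 0) of Slc5a10, Llgl1, B9d1 and Med9 in each library by group, with the group mean and SD as bars; circles stand for the Flcn and Flcn/Tfeb crosses, squares for the in vivo table and triangles for the CDM table. Slc5a10 is lower on average in the knockout of each cross, and Med9 is the one gene whose groups do not overlap, in the Flcn/Tfeb cross.

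Among genes of the cytoskeleton, polarity, cilia and matrix, Llgl1 and B9d1 leaned opposite ways in the Flcn cross. Llgl1 is a basolateral polarity protein of the Scribble module. It was at 22.4, 20.9, 23.4, 31.2 and 27.9 CPM in control and at 17.8, 18.1, 12.5, 8.78 and 23.5 CPM in Flcn KO kidneys, with 4 KO libraries below every control. Its log2 fold change was -0.62 (95% interval -1.06 to -0.17, adjusted p = 0.345, edgeR) and the exact permutation p was 0.0317. In the other crosses it was 0.11 (-0.46 to 0.69) and 0.18 (-0.17 to 0.53). Llgl1 overlaps Flii, an actin-remodelling gelsolin relative on the opposite strand, at its end.

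B9d1, a protein of the ciliary transition zone, was at 23.8, 31.4, 31.9, 22.3 and 18.5 CPM in control and at 27.5, 37, 31.3, 42 and 35.5 CPM in Flcn KO kidneys. All 5 KO libraries were above the control median but 2 of them lay within the control range. The log2 fold change was 0.46 (0.09 to 0.82, adjusted p = 0.407, edgeR, exact permutation p = 0.0556). It was 0.15 with Tfeb also deleted and -0.16 in the Flcn/Tfe3 cross, where the tables differed in sign (0.33 and -0.67). Of the 6 tested members of this group, 3 were higher and 3 lower in the Flcn cross, 4 and 2 with Tfeb also deleted (2 and 4 without control Flcn/Tfeb replicate 2) and 4 and 2 in the Flcn/Tfe3 cross.

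Med9, a Mediator subunit whose start lies 138.2 kb from that of Flcn, was the one member whose groups did not overlap in any cross. In the Flcn/Tfeb cross it was at 18.7, 14.6 and 25.6 CPM in control and at 11.5, 11, 10.7 and 13.4 CPM in DKO kidneys. Groups that do not overlap were found for 5.65% of the genes tested in that cross, so 1 of 38 members is no more than the background. The corresponding shares were 2.39% in the Flcn cross and 0.120% in the Flcn/Tfe3 cross, with 0 members in both. The log2 fold change of Med9 was -0.78 (-1.37 to -0.20, adjusted p = 0.798, edgeR). Without control replicate 3 it was -0.52, with an unadjusted p of 0.0852. The exact permutation p of 0.0286 is the smallest that the 35 regroupings of 7 libraries can give. In the other crosses Med9 differed by 0.09 and -0.04.

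Ncor1, the nuclear receptor corepressor and the most abundant member at a mean of 356 CPM, was at 416 ± 39 CPM (SD, n = 5) in control and 365 ± 30.3 CPM (SD, n = 5) in Flcn KO kidneys. All 5 KO libraries lay below the control median, yet the groups overlapped and the log2 fold change was -0.19 (-0.42 to 0.05). It was 0.13 and 0.08 in the other crosses, the last from -0.21 in the in vivo table and 0.31 in the CDM table, neither of them called. Ncor1 overlaps Ttc19 and Pigl on the opposite strand. The group of transcription, RNA and DNA lists 8 members (Med9, Rai1, Ncor1, Alkbh5, Top3a, Zswim7, Cenpv and Flii). Flii, the gelsolin relative named above, was at -0.14, -0.38 and 0.13 in the 3 crosses. In this group 6 of the 7 tested were lower in the Flcn cross, 5 of 7 with Tfeb also deleted and 3 of 8 in the Flcn/Tfe3 cross. Without control Flcn/Tfeb replicate 3 the count of 5 became 3 of 7, and without either of the other controls of that cross it was 4 of 8. In the Flcn/Tfe3 cross, 5 of 8 were lower in the in vivo table alone and 4 of 8 in the CDM table alone. The demethylase gene Alkbh5 is in this group, with values of -0.30, -0.58 and 0.07. Its -0.58 rests on control Flcn/Tfeb replicate 3 (69.8 CPM, where the other controls were at 27.4 and 33.9 CPM) and was -0.04 without it, and its 0.07 joins -0.21 in the in vivo table and 0.29 in the CDM table.

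The members tied to folliculin by pathway showed no call either. Smcr8 was read at 10.5 ± 1.67 CPM (SD, n = 5) in control and 13.7 ± 2.71 CPM (SD, n = 5) in Flcn KO kidneys, with all 5 KO libraries above the control median. Its log2 fold change was 0.38 (-0.06 to 0.82, adjusted p = 0.608, edgeR), against -0.16 and 0.08 in the other crosses. Smcr8 overlaps Shmt1 on the opposite strand. Ulk2 differed by -0.15, 0.26 and 0.05. Srebf1 was low, at 5.36 and 4.93 CPM in the Flcn cross, and its interval there, from -0.99 to 0.84, allowed nearly a 2-fold change either way.

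Usp22, the deubiquitinase of the SAGA complex, was measured more closely at a mean of 124 CPM, and its log2 fold changes were -0.08, -0.13 and 0.13. Among the 7 members of the ubiquitin, signalosome and autophagy group, 3 of 6 tested were higher in the Flcn cross, 2 of 6 with Tfeb also deleted (3 of 6 without control Flcn/Tfeb replicate 2, control replicate 3 or DKO replicate 1) and 6 of 6 in the Flcn/Tfe3 cross. The last 6 values ran from 0.04 to 0.20 and none was called. They join tables that differ: in the in vivo table alone Cops3 was 0.55 and the other 5 were below 0 (-0.20 to -0.01), and in the CDM table alone Cops3 was -0.36 and the other 5 were above 0 (0.14 to 0.53).

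No mitochondrial or lipid gene was called. Listed as mitochondrial were 6 tested members, among them Atpaf2, an assembly factor of ATP synthase, and Ttc19, which acts on complex III. Shmt1, the cytosolic form of its enzyme, is also counted there, at 0.10, -0.08 and 0.21 in the 3 crosses. All 6 were higher in the Flcn cross, by 0.01 to 0.24, and 3 of 6 were higher in each of the others. Without control Flcn replicate 5 only 4 of 6 were higher in the Flcn cross. In the Flcn/Tfe3 cross the count joins 5 of 6 in the in vivo table alone and 2 of 6 in the CDM table alone. Shmt1 was among the higher ones in both (0.12 and 0.27). Dhrs7b, a peroxisomal and reticular reductase of ether lipid synthesis, was the fourth member with an unadjusted p under 0.05 in the Flcn cross, at 0.34 (0.02 to 0.65, adjusted p = 0.513, edgeR). Pigl, an enzyme of glycosylphosphatidylinositol anchor synthesis, was at 3.5, 10.5 and 4.6 CPM in the Flcn/Tfeb controls and at 9.92, 12.3, 14.1 and 7.47 CPM in the DKO kidneys. One control lay among the DKO libraries, and the log2 fold change of Pigl was 0.84 (-0.10 to 1.77, adjusted p = 0.798, edgeR). It was 1.38 without control replicate 2 and 0.59 without control replicate 1, neither of them called. In the same cross Srebf1 was at 0.34 (-0.63 to 1.30) and Aldh3a2, a fatty aldehyde dehydrogenase, at -0.37 (-1.04 to 0.29), and the median of the 5 tested lipid and aldehyde genes was 0.34. When 1 library was left out, that median ran from 0.29 (without control replicate 1) to 0.55 (without control replicate 3).

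Pemt, which makes phosphatidylcholine from phosphatidylethanolamine chiefly in liver, had the largest value of any member tested in a cross. In the Flcn/Tfeb cross it was at 4.09, 3.5 and 7.76 CPM in control and at 23, 3.89, 3.81 and 13.8 CPM in DKO kidneys. Of the 4 DKO libraries, 2 were at the control level and 2 well above it, and the log2 fold change was 1.05 (-0.34 to 2.45, adjusted p = 0.798, edgeR). Summed liver transcripts were at 2582 and 1451 CPM in those 2 libraries and at 212 and 296 CPM in the other 2. Without DKO replicate 1, the library at 23 CPM, Pemt no longer passed the filter on low counts, and with no filter, a refit added after the data were seen, its log2 fold change went from 1.05 to 0.44 (-0.75 to 1.62). Without control replicate 3 it was 1.57. In the Flcn/Tfe3 cross Pemt had a log2 fold change of -0.63 (-1.35 to 0.08), which was -0.40 without control replicate 1, the library with the most Pemt (28.9 CPM) and the highest liver sum (3585 CPM), and -0.88 without control replicate 3.

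Over all 35 libraries, Pemt was above 10 CPM in 9, and 7 of these were among the 9 libraries with the most liver transcripts. The exceptions were a Flcn/Tfe3 control at 18.2 CPM of Pemt with 315 CPM of liver transcripts and another at 11.8 with 134 CPM. In the 26 libraries with less Pemt the liver sum ran from 47.9 to 761 CPM. The part of liver RNA in the Pemt values was not tested.

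**Figure D4:**
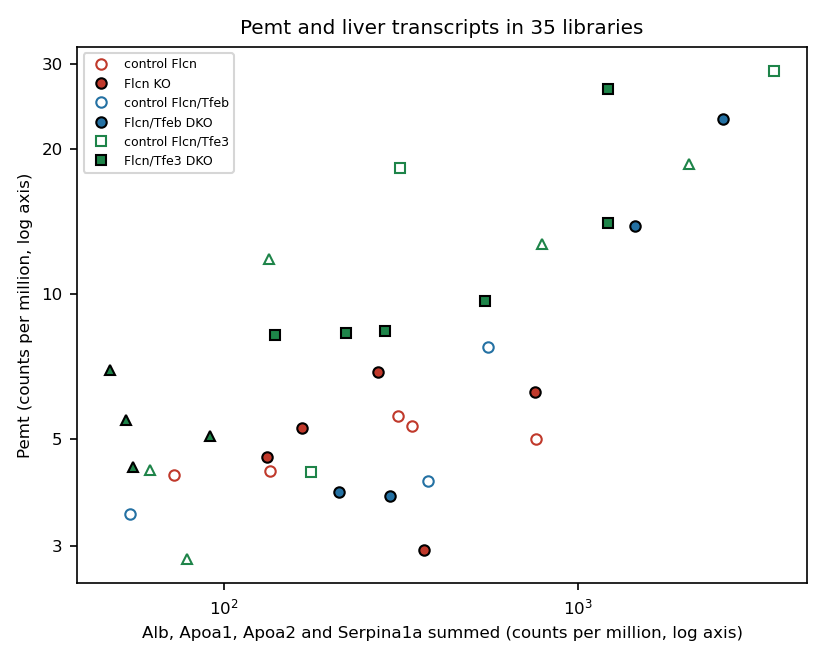
Pemt in CPM (vertical axis, log scale) against the summed CPM of Alb, Apoa1, Apoa2 and Serpina1a (horizontal axis, log scale) in the 35 libraries; open symbols are controls, filled symbols knockouts, circles the Flcn and Flcn/Tfeb crosses, squares the in vivo table and triangles the CDM table. The 6 libraries with more than 1000 CPM of liver transcripts all have more than 10 CPM of Pemt.

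Differences between the crosses were tested directly. In the Flcn/Tfeb DKO effect less the Flcn KO effect, 0 of 40 members were called, beside 0.0153% of 13049 genes (2 genes), and 1 member (Med9, -0.88) had an unadjusted p under 0.05, beside 5.947% of all genes. Med9 was not under it without control Flcn/Tfeb replicate 3 or without Flcn KO replicate 2 or 5. For the Flcn/Tfe3 DKO effect less the Flcn KO effect, 0 of 40 members and 0% of 13728 genes were called. Here Llgl1 (0.79, interval 0.19 to 1.38) and the p38 kinase kinase Map2k3 (0.39, interval 0.04 to 0.73) had an unadjusted p under 0.05, beside 6.184% of all genes, with an adjusted p of 0.760 each (edgeR). With the in vivo table alone 3 of 40 members had such a p (Cenpv, Map2k3 and Rai1, beside 2.815% of all genes), and Llgl1 was at 0.64 without passing it. With the CDM table alone there were 9 of 40 (22.5%, beside 20.2% of all genes), Llgl1 among them at 0.93 and Map2k3 not, at 0.26. The smallest adjusted p of a member there was 0.0807 (edgeR). Over the 35 refits that leave out 1 library each, Llgl1 was under that p in all and Map2k3 in 28. The 7 Flcn/Tfeb libraries enter this difference only through the fit they share. None of the 7 misses of Map2k3 came from leaving out one of them. For the Flcn/Tfe3 DKO effect less the Flcn/Tfeb DKO effect, 0 of 40 members were called, beside 0.0291% of 13728 genes (4 genes), and Med9 (0.725), Pemt (-1.71) and Pigl (-0.86) had an unadjusted p under 0.05, beside 13.94% of all genes. With the in vivo table alone 4 of 40 members had such a p (beside 9.01% of all genes) and with the CDM table alone 9 of 40 (22.5%, beside 23.25%, smallest adjusted p 0.0845, edgeR). Pemt was not under that p without Flcn/Tfeb DKO replicate 1 (-1.09) or without control Flcn/Tfeb replicate 2 (-1.51), and Med9 and Pigl were not without control Flcn/Tfeb replicate 3 (0.48 and -0.62). Over the 35 refits that leave out 1 library each, Pigl missed it in 15, Pemt in 2 and Med9 in 1. The 10 libraries of the Flcn cross enter this difference only through the shared fit. The count of genes called rests on the 3 Flcn/Tfeb controls: it was 199 without replicate 2, 77 without replicate 1 and 2 without replicate 3, with 0 members called each time. DESeq2 called 0 members in each of these differences, beside 8, 0 and 17 genes.

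Map2k3 ran from 63 to 97.1 CPM (median 75.3) in the 8 Flcn/Tfe3 controls and from 77.3 to 103 CPM (median 82.8) in the 10 DKO libraries. The groups overlapped, and the log2 fold change was 0.31 in the in vivo table alone and 0.02 in the CDM table alone. Over both tables it was 0.18 (-0.02 to 0.38, exact permutation p = 0.0577), and in the Flcn cross it was -0.22.

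The 3 crosses did not share one order of members. Of the 38 members tested in each, 7 were higher in all 3 (Akap10, Atpaf2, Cops3, Epn2, Mief2, Pigl and Specc1) and 6 were lower in all 3 (Mapk7, Mfap4, Prpsap2, Slc47a1, Slc5a10 and Zswim7). These signs held in both tables of the Flcn/Tfe3 cross for Epn2, Mief2 and Specc1 among the first and for Mfap4 and Slc5a10 among the second. Pigl was at 0.006 there and Cops3 and Akap10 were above 0 in the in vivo table (0.55 and 1.12) and below 0 in the CDM table (-0.36 and -0.62). When 1 library at a time was left out, the signs of Slc47a1 and Slc5a10 held in every refit of each cross, and each of the other 11 changed sign in at least 1. Across members the log2 fold changes had a Pearson coefficient of 0.39 between the Flcn and Flcn/Tfeb crosses (38 members), -0.07 between the Flcn and Flcn/Tfe3 crosses (39 members) and -0.30 between the Flcn/Tfeb and Flcn/Tfe3 crosses (38 members). The first rests on control Flcn/Tfeb replicate 3 and was 0.06 without it, and the second was 0.31 with the in vivo table alone and -0.32 with the CDM table alone. These crosses have no library in common, but members within a cross share libraries, so the coefficients are given without a test.

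Controls of different crosses were compared as well. Between the Flcn/Tfeb and the Flcn controls, 0 of 40 members and 0% of 12079 genes were called (edgeR), and 2 members and 883 genes had an unadjusted p under 0.05. Those members were Mfap4, a microfibril protein, which was higher in the Flcn/Tfeb controls by 0.58 (0.16 to 1.01), and Ncor1, which was lower (-0.38, interval -0.75 to -0.0046). DESeq2 called 0 members and 21 genes. Without control Flcn/Tfeb replicate 3, 162 genes and 1 member were called (B9d1, adjusted p = 0.0441, edgeR), and 10 of 40 members (25%) had an unadjusted p under 0.05, beside 24.07% of all genes.

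Other genes of the same stretch were read beside the members. Of 26 further genes there that the tables hold, only 3 to 5 passed the filter in a cross, and 1 was called, Ubb, in the Flcn and the Flcn/Tfe3 crosses. Ubb was at 283 to 377 CPM in 3 of 5 Flcn controls and in 5 of 8 Flcn/Tfe3 controls, and at 15.1 to 102 CPM in the other 27 libraries, knockouts included. Among the members closest to the far end of the stretch, Cenpv had log2 fold changes of -0.25, -0.43 (interval -1.28 to 0.42) and 0.23 in the 3 crosses. The second was 0.10 without control Flcn/Tfeb replicate 3 (26.4 CPM, beside 11.1 and 13.4 CPM in the other controls), and the last joins 0.64 in the in vivo table (unadjusted p = 0.0103, adjusted p = 0.752, edgeR) and -0.20 in the CDM table. Trpv2, at a mean of 1.43 CPM, was not tested.

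How reads fell outside genes varied between libraries, and members were called with it no more often than genes as a whole. In the 26 libraries whose files give it, between 7.92% and 19.9% of all reads listed lay in no annotated gene. These totals include reads aligned to more than 1 place (33.7% to 49.4%), whose part was not tested. In the Flcn cross the share outside genes was 9.06% to 18% in control and 12.9% to 18.1% in Flcn KO libraries. In the Flcn/Tfeb cross it was 17.8%, 19.9% and 9.07% in control and 18.8% to 19.4% in DKO libraries, so control replicate 3 stood apart. Without that library 14 of the 38 members tested in the Flcn/Tfeb cross changed sign, none of them called, where leaving out any other library of the cross changed at most 5. In the CDM table it was 8.78% to 18.4% (median 12.8%) in control and 7.92% to 10.5% (median 9.03%) in DKO libraries. Summed red blood cell transcripts also differed in that table, at 2073 to 7568 CPM in control and 1395 to 1838 CPM in DKO libraries, and their part in the CDM values of the members was not tested. A test of this share within groups, added after the data were seen, called 13 of 40 members, 6 rising and 7 falling with it, or 32.5% beside 34.8% of 13395 genes (edgeR).

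Alkbh5 fell by 0.11 on the log2 scale for each percentage point (SE 0.020, adjusted p = 3.6e-05, edgeR), the smallest p of a member. Llgl1 fell by 0.076 (SE 0.020, adjusted p = 0.00242, edgeR), and Flii, its neighbour, by 0.07. Akap10, a kinase anchoring protein, rose by 0.16 (SE 0.034, adjusted p = 0.000422, edgeR), B9d1 by 0.093 and Cops3 by 0.052. Med9 fell by 0.060. Slc5a10 had a slope of 0.019 that was not called (adjusted p = 0.581, edgeR).

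With the share as a covariate, Llgl1 was at -0.49 and B9d1 at 0.41 in the Flcn cross, neither of them called. Slc5a10 became -0.75 and was called there (adjusted p = 0.0143, edgeR), where 153 genes were called in place of 62. Slc5a10 in the Flcn/Tfeb cross went from -0.60 to -0.27 and Med9 from -0.78 to -0.49. The call of Slc5a10 thus rests on a covariate that was chosen after its values were seen.

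**Figure D5:**
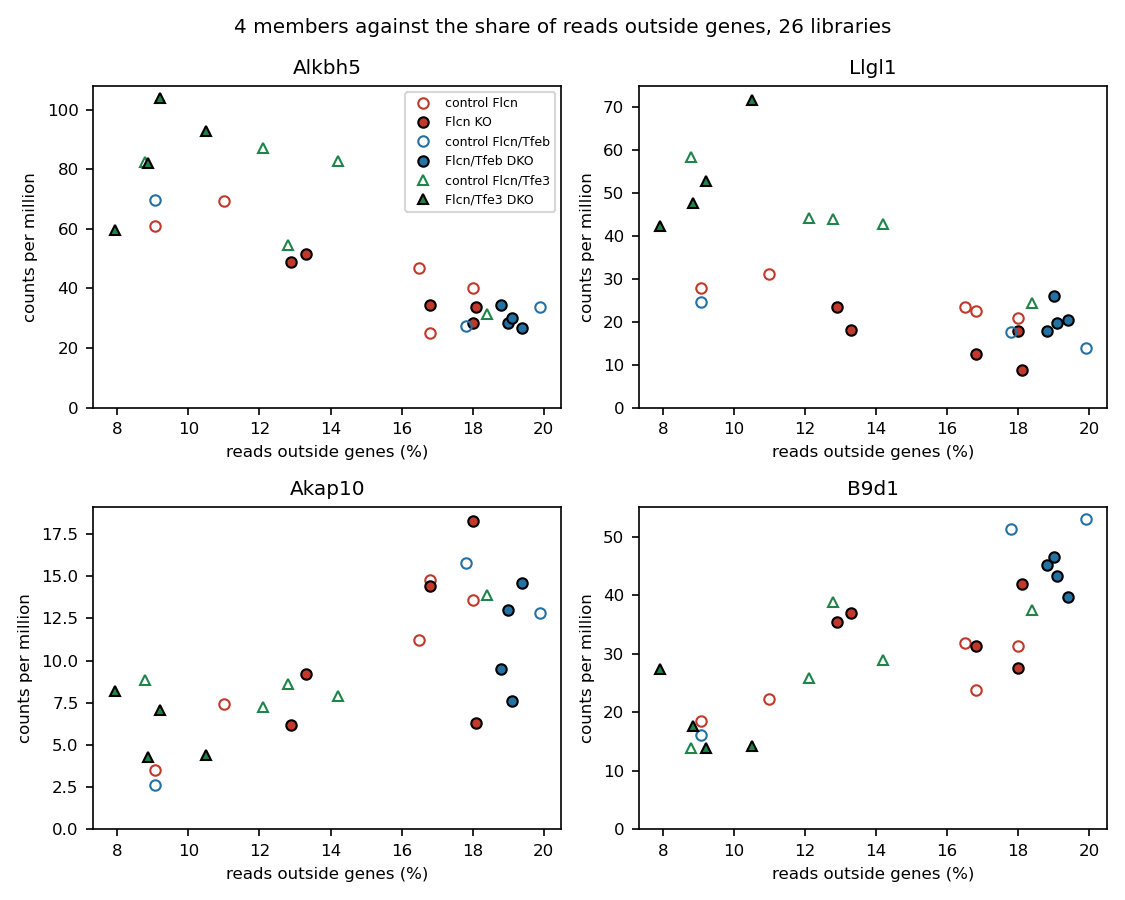
CPM (vertical axis, from 0) of Alkbh5, Llgl1, Akap10 and B9d1 against the percent of reads outside genes (horizontal axis) in 26 libraries; open symbols are controls, filled symbols knockouts, circles the Flcn and Flcn/Tfeb crosses and triangles the CDM table of the Flcn/Tfe3 cross. Alkbh5 and Llgl1 are lower and Akap10 and B9d1 higher in libraries with a larger share.

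Members at the edge of detection were read as counts. Apart from Pld6, the genes Trpv2, Drc3, Rasd1, Rnf112, Aldh3a1 and Myo15 passed the filter in no cross, Top3a passed it in the Flcn/Tfe3 cross and Adora2b in 2 crosses. Rnf112, a brain-enriched ring finger gene, had 16 counts in all 35 libraries together. Its exact permutation p in the Flcn/Tfe3 cross was 0.00661, but it had at most 4 counts in a library and group means of 1.25 counts in control and 0.1 in DKO, both under 3 counts, so no fold change is given.

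The promoters of the members were searched for the E-box of Tfeb and Tfe3. The windows, from RefSeq (GRCm38.p6), run from 250 bases before to 50 after each start, and 38 of the 47 members had one. The letters CACGTG, which read the same on both strands, were found for 7 of these 38 members (18.4%), beside 8.09% of 27025 genes. The window of Flcn does not hold these letters. A match is not evidence of binding. The sites are shown with the motif in capitals and read along the strand of the gene.

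Pld6 (chr11:59787673-59787702, minus strand): ggggcgggctggCACGTGttgggcgcgcaa

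Drc3 (chr11:60353293-60353322, plus strand): tagaaatatggcCACGTGacgaatcaactt

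Atpaf2 (chr11:60417175-60417204, minus strand, shared with the start of Gid4 on the plus strand): ggacagagaaagCACGTGgcgcagagcgcg

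Mief2 (chr11:60728362-60728391, plus strand): ctccgttttgagCACGTGtgcgcaggagtt

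Aldh3a2 (chr11:61267199-61267228, minus strand): gggcctcatagtCACGTGcagcagctcagc

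Akap10 (chr11:61930310-61930339, minus strand): aggacgccaggtCACGTGggctgagcgggc

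The 5 of these genes that passed the filter (Atpaf2, Gid4, Mief2, Aldh3a2 and Akap10) had a median log2 fold change of 0.05 in the Flcn cross (range -0.41 to 0.24), 0.17 with Tfeb also deleted (-0.37 to 0.31) and 0.12 in the Flcn/Tfe3 cross (0.04 to 0.21). The median of 0.17 was -0.18 without control Flcn/Tfeb replicate 3. The median of 0.05 was 0.21 without control Flcn replicate 1. It was -0.04 without control Flcn replicate 5 or without Flcn KO replicate 5. The median of 0.12 joins 0.21 in the in vivo table (-0.10 to 1.12) and 0.05 in the CDM table (-0.62 to 0.17). Without control Flcn/Tfe3 replicate 3 it was 0.03. The members with a window but without the motif had medians of 0.00, -0.01 and 0.01. Gid4, a substrate receptor of the GID ubiquitin ligase, and Atpaf2 share 1 site between them and differed in sign in the Flcn cross (-0.41 and 0.24). None of the 5 was called.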

How the data were processed

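Reads from 35 QuantSeq kidney libraries, numbered in the labels as biological replicates, were trimmed with bbduk, aligned to mm10 with STAR and counted per gene with HTSeq by the authors, who deposited the raw counts (the submitters' processing notes name Trim Galore and STAR). No libraries were pooled. Genes were joined by Ensembl ID, and positions come from GENCODE on the same build. Rows that name no gene stayed out of library sizes. In the 26 libraries that list them, reads in no gene made up 7.92% to 19.9% of all reads listed, those aligned to more than 1 place included. Of the columns of values, 1 was not used.

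Counts were tested with edgeR 4.0.16 (filterByExpr by group, TMM factors, quasi-likelihood F test, two-sided), with Benjamini-Hochberg adjustment over all genes tested and a threshold of 0.05. The table was a term in the Flcn/Tfe3 cross. CPM values use TMM-scaled library sizes. Exact permutation tests (two-sided) compared mean log2(CPM + 0.5), within tables, over 252, 35 and 10584 regroupings. Within groups, 63 library pairs differed by more than sampling noise (chi-square per degree of freedom 2.71 to 39.06). Alternatives were DESeq2 1.42.0, RLE factors, no filter on low counts, a mean of at least 10 counts, an adjusted p under 0.1, a replicate block, each table alone and leaving out each library. The fits were tested on simulated data.

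Named genes were the 3 members with the smallest p in each comparison, those beside Flcn, the 5 of highest mean CPM, Smcr8, Srebf1 and Ulk2, members behind a count of 5 or fewer, and others as examples chosen after their values were seen. The 47 members and all gene lists were chosen with earlier results of these data known. The liver genes, the share of reads outside genes and the libraries left out for liver or adrenal transcripts were chosen after seeing the data.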

Additional observations from a re-analysis of the deposited data

Results flagged for a closer look

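Over 18 named members, 108 groups of 4 to 6 libraries, split by table, were examined for a library far from the rest of its group, and 4 were found. Chance gives about 1 in 20 groups. Slc5a10 was at 72.3 CPM in Flcn KO replicate 1, where the other 4 KO libraries were at 33.7 to 44.5 CPM. Mfap4 was at 42 CPM in Flcn/Tfe3 DKO replicate 2 of the in vivo table, where the others were at 27 to 31.9 CPM. Pemt was at 26.6 CPM in that same library, with the others at 8.21 to 14 CPM, and its summed liver transcripts were at 1218 CPM. Nt5m was at 20.2 CPM in Flcn/Tfeb DKO replicate 1, with the others at 16.5 to 16.8 CPM.

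For 2 members every knockout library was below the control median in the Flcn cross and above it in the Flcn/Tfeb cross, although control and knockout ranges overlapped in both. Ncor1 differed by 0.148 in Flcn/Tfeb DKO and by -0.184 in Flcn KO kidneys, as the difference of mean log2(CPM + 0.5), and Ulk2 by 0.278 and -0.117. The test of the difference itself gave an adjusted p of 0.849 for Ncor1 and 0.857 for Ulk2 (edgeR).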

How the results depend on the processing

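The count of members called was 0 under every setting tried, in all 7 comparisons, with 2 exceptions. With the share of reads outside genes as a covariate, added after seeing the data, 1 member was called in the Flcn cross (Slc5a10, -0.75). Without control Flcn/Tfeb replicate 3, 1 member was called between the controls (B9d1, adjusted p = 0.0441, edgeR), so the count over left-out libraries ran from 0 to 1 there, and from 0 to 0 elsewhere. That library also moved the genes called between the controls from 0 to 162. In the Flcn/Tfe3 DKO effect less the Flcn/Tfeb DKO effect the genes called ran from 2 to 199 over left-out libraries, and without control Flcn/Tfeb replicate 2 the smallest adjusted p of a member was 0.0838 (edgeR). Replicate numbers did not pair the libraries (correlations of -0.31 to 0.31). With a replicate block 0 members were called in each cross, and 48, 0 and 0 genes in place of 62, 0 and 48. In the Flcn/Tfe3 cross the in vivo table alone called 8 genes and the CDM table alone 569 of 12169, with 0 members in each. In the CDM table alone 9 of 40 members had an unadjusted p under 0.05 (22.5%, beside 21.3% of all genes) and the smallest adjusted p of a member was 0.0614 (edgeR), against 1 of 40 and 0.433 over both tables.

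Of the log2 fold changes of named members, 360 kept direction and side of the threshold under other settings and 29 changed sign, none of them called. In the Flcn/Tfe3 cross, Pigl became -0.01 with DESeq2, -0.01 with RLE factors, -0.00 after removing genes averaging under 10 counts, -0.30 in the CDM table, -0.24 without libraries of high adrenal transcripts and -0.06 without those of high liver transcripts. With the replicate block Pigl was -0.08, Ncor1 -0.01, Nt5m 0.03 and Ulk2 -0.07. In the in vivo table alone B9d1 was 0.33, Ncor1 -0.21, Mprip -0.07, Nt5m 0.06, Usp22 -0.07, Slc47a1 0.05, Smcr8 -0.01 and Ulk2 -0.20. Cops3 was -0.36 in the CDM table and -0.11 without high adrenal libraries, and Srebf1 was 0.16 without those and 0.02 without high liver libraries. With the share as covariate, Nt5m was -0.06 in the Flcn cross, and in the Flcn/Tfeb cross B9d1 was -0.28, Cops3 -0.07, Mprip 0.00, Nt5m 0.15 and Usp22 0.01. Smcr8 was 0.23 there without high adrenal libraries. The cause was not tested.

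Leaving out 1 library at a time changed the sign of 42 of these values. In the Flcn cross Med9 ran from -0.05 to 0.21, Mfap4 from -0.11 to 0.01, Pemt from -0.04 to 0.21, Nt5m from -0.05 to 0.09 and Srebf1 from -0.43 to 0.26. In the Flcn/Tfeb cross Llgl1 ran from -0.05 to 0.39, B9d1 from -0.27 to 0.41, Cops3 from -0.06 to 0.20, Mprip from -0.33 to 0.00, Nt5m from -0.22 to 0.13, Usp22 from -0.23 to 0.02 and Smcr8 from -0.39 to 0.06. In the Flcn/Tfe3 cross Med9 ran from -0.10 to 0.03, Pigl from -0.09 to 0.09, Cops3 from -0.03 to 0.16, Nt5m from -0.12 to 0.05, Smcr8 from -0.00 to 0.19, Srebf1 from -0.24 to 0.02 and Ulk2 from -0.02 to 0.13. Slc5a10 kept its sign, from -0.85 to -0.45, from -0.93 to -0.36 and from -0.39 to -0.28. Depth limits members near 3 counts, such as Pld6.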
